A study of Mus musculus with 16 samples.

Results

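A set of 10 genes that mark Langerhans cells or carry out antigen presentation on MHC class II was followed through the epidermis of SKH-1 mice, an outbred hairless stock. They were Cd207, Epcam, Mfge8, Itgax, H2-Aa, H2-Ab1, H2-Eb1, Cd74, Ciita and Cd86, taken as the rows of the deposited count table whose Ensembl identifiers carry these symbols, and all 10 were found among the 49585 genes of the table and passed the filter on low counts. RNA sequencing was done on epidermis separated by heat shock from mice 8 to 12 weeks old. Each of 4 groups held 4 libraries: C/EBPβ knockout epidermis 6 h after 100 mJ/cm2 of ultraviolet B (UVB), K5Cre control epidermis 6 h after the same dose, unexposed knockout epidermis, and unexposed K5Cre control epidermis. The knockout is described as epidermis-specific, the controls carry the Cre transgene, and the keratin 5 promoter that drives it is active in basal keratinocytes, so Langerhans cells were not the cells targeted. Nothing in the labels ties a library to an animal, and the p-values therefore reflect the spread among these libraries alone, part of which may be technical.

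Langerhans cells are dendritic antigen-presenting cells that live in the epidermis. They take up antigen among the keratinocytes, leave for the lymph node when activated, and are recognised in mouse skin by langerin, the product of Cd207. Class II molecules pair an alpha with a beta chain, H2-Aa with H2-Ab1 in the I-A molecule and H2-Ea with H2-Eb1 in the I-E molecule. The invariant chain Cd74 holds the pair in the endosomal pathway until the H2-DM proteins exchange its remnant for peptide. All of these genes are switched on by Ciita, a co-activator that binds no DNA itself and is recruited to class II promoters by factors bound to a conserved pair of elements, the X box and the Y box. Cd86 supplies the costimulatory signal to T cells.

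The 16 libraries held 33.0 to 53.3 M counts each, and values below are CPM, counts scaled to library size with TMM, a correction for differences in library composition. Cebpb, the gene that encodes C/EBPβ, read 0.609 to 3.03 CPM in exposed knockout, 253 to 319.6 CPM in exposed control, 0.177 to 0.875 CPM in unexposed knockout and 155 to 186 CPM in unexposed control libraries. Counted at equal depth, 19207 to 21538 genes were detected in exposed knockout libraries and 16987 to 19318 in exposed control libraries, so that exposed controls held fewer detected genes. The corresponding ranges were 18810 to 21155 genes in unexposed knockout and 18454 to 19929 genes in unexposed control libraries. Mitochondrial transcripts took 5.44 to 5.99% of the counts in exposed knockout, 5.24 to 9.65% in exposed control, 4.33 to 10.2% in unexposed knockout and 5.62 to 8.57% in unexposed control libraries. The part of these differences in the results was not tested.

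The X box and Y box of the class II genes are shown first, because the chain genes and Cd74 moved together across libraries (described below) and class II promoters are known for these elements. Promoter sequence from RefSeq on GRCm38.p6, 250 bases before to 50 after the start site, was at hand for 6 of the 10 genes. Of these, H2-Aa and H2-Eb1 held a Y box, searched as TGATTGG on both strands, while Cd207, Epcam, Mfge8 and Itgax held none in this window. In the sequences below, capitals mark the Y box and, before it, either the X box, searched as AAC, any 3 bases and then TGATG, or in H2-Aa a cyclic AMP response element, searched as TGACGTCA, which reads the same on both strands. The H2-DM and H2-O genes, which load class II molecules with peptide and regulate the loading, are printed beside them for the 3 promoters that held both boxes.
H2-Aa, chr17:34287859-34287909, minus strand: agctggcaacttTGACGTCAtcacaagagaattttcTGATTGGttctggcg
H2-Eb1, chr17:34305766-34305820, plus strand: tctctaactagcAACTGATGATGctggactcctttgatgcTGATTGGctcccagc
H2-DMb1, chr17:34153087-34153142, plus strand: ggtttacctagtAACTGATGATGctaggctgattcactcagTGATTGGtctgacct
H2-DMb2, chr17:34145116-34145171, plus strand: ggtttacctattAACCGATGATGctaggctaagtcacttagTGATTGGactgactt
H2-Ob, chr17:34238808-34238860, plus strand: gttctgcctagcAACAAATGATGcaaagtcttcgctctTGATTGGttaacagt

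In these 5 promoters the marked elements were separated by 15 to 18 bases, 16 in H2-Aa and 17 in H2-Eb1, and the Y box began 50 bases before the start site in H2-Aa and 61 before it in H2-Eb1. H2-Oa held a Y box, 45 bases before its start site, without the X box letters. H2-DMa held neither box nor the cyclic AMP element in either of its 2 promoter entries. Of 32851 promoters of the same length, 7.82% held the Y box letters, 0.615% the X box letters, 1.79% the cyclic AMP element and 0.0517%, or 17 promoters, both boxes. The letters were chosen after these sequences were read, and a match is a description of the sequence and not a binding site.

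Per kilobase of exon, Cd74 and Epcam had the highest group means and Ciita the lowest in all 4 groups. In exposed knockout epidermis Cd74 averaged 196.6 ± 22.1 CPM per kilobase and Epcam 136 ± 17.0 (SD, n = 4 each), whereas in unexposed control epidermis Cd74 averaged 80.3 ± 28.4 and Epcam 171 ± 16.3 CPM per kilobase (SD, n = 4 each). Cd74 was above Epcam in all 4 exposed knockout libraries, below it in all 4 exposed control and all 4 unexposed control libraries, and the levels overlapped in unexposed knockouts. Next in exposed knockout epidermis came H2-Eb1 at 52.4 ± 4.91 and H2-Ab1 at 46.4 ± 6.12 CPM per kilobase, whose ranges overlapped. Cd207 at 26.9 ± 2.47 and H2-Aa at 25.8 ± 2.14 CPM per kilobase overlapped as well (SD, n = 4 each). Mfge8 followed at 15.6 ± 3.03, Cd86 at 4.88 ± 0.722, Itgax at 2.08 ± 0.291 and Ciita at 0.844 ± 0.182 CPM per kilobase (SD, n = 4 each), and the ranges of these 4 did not overlap. The order in unexposed control epidermis was Epcam, Cd74, H2-Eb1 (30.1 ± 8.64), H2-Ab1 (19.7 ± 7.16), H2-Aa (12.6 ± 4.54), Cd207 (9.14 ± 3.76), Mfge8 (6.17 ± 2.48), Cd86 (2.56 ± 0.311), Itgax (1.01 ± 0.282) and Ciita (0.705 ± 0.279), and the ranges of all neighbours overlapped there except those of Epcam and Cd74, of Cd74 and H2-Eb1, of Mfge8 and Cd86, and of Cd86 and Itgax. These lengths are of all annotated exons together, so a gene with long, rarely used exons reads low on this scale.

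**Figure D1:**
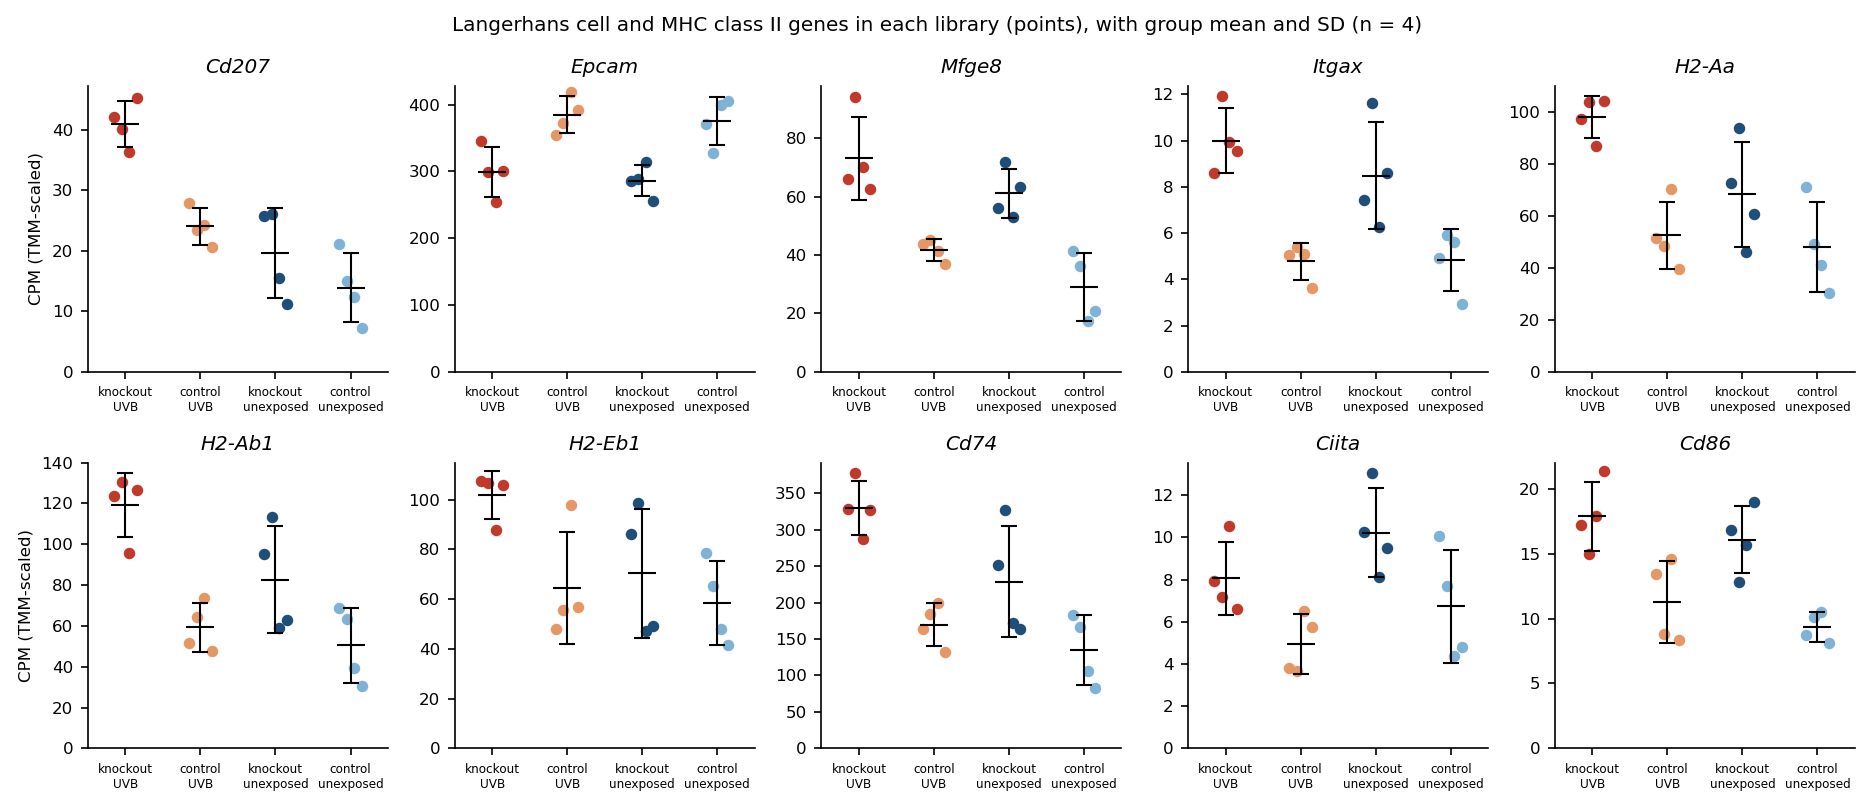
Level of each of the 10 genes in every library (points, CPM scaled by TMM, vertical axis from 0), with the group mean and SD (bars, n = 4), for exposed knockout, exposed control, unexposed knockout and unexposed control epidermis. Exposed knockout libraries sit above every exposed control library for 8 of the 10 genes and below them for Epcam, and Cd207 is the 1 gene of the 10 whose exposed knockout libraries are also above all unexposed knockout libraries.

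After UVB, the question was which of these genes differ when the keratinocytes lack C/EBPβ. Of the 10 genes, 5 rose in exposed knockout epidermis against exposed control epidermis and 0 fell: Itgax, H2-Ab1, Cd74, H2-Aa and Mfge8, by 1.75 to 2.09 fold (edgeR quasi-likelihood test, Benjamini-Hochberg adjusted p = 0.0195 to 0.0322). Of all 17741 genes tested, 4.68% passed in either direction, 2.36% higher and 2.32% lower. The median log2 fold change was 0.79 over the 10 genes and 0.04 over all genes tested. In bulk tissue, more Langerhans cells, more RNA per Langerhans cell and RNA of these genes from other cells cannot be told apart.

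Among the surface markers, Cd207 read 42.1, 40.0, 36.3 and 45.3 CPM in exposed knockout libraries 1 to 4, against 27.9, 23.4, 24.3 and 20.5 CPM in exposed control libraries. Every knockout library was above every control library, but the log2 fold change of 0.77 (SE 0.26) missed the threshold over all genes (edgeR adjusted p = 0.100). It passed when only the 8 exposed libraries were fitted (adjusted p = 0.0126). Itgax, the integrin alpha chain CD11c of dendritic cells, read 8.59, 11.9, 9.95 and 9.55 CPM in exposed knockout libraries, against 5.04, 5.38, 5.11 and 3.61 CPM in exposed control libraries. It rose by 1.06 on the log2 scale (SE 0.26, edgeR adjusted p = 0.0195), with no overlap. Mfge8, a secreted protein that bridges phosphatidylserine on dying cells to phagocyte integrins, read 66.1, 94.0, 70.1 and 62.6 CPM in exposed knockout libraries, against 43.6, 45.1, 41.3 and 36.8 CPM in exposed control libraries. It rose by 0.81 (SE 0.21, edgeR adjusted p = 0.0300).

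Epcam, an adhesion protein of Langerhans cells that hair follicle keratinocytes also make, went the other way from the rest. It read 345, 299, 253 and 300.3 CPM in exposed knockout libraries, against 355, 373, 419.5 and 391 CPM in exposed control libraries. All knockout libraries were below all control libraries, and the log2 fold change was -0.36 (SE 0.12). It did not pass by edgeR (adjusted p = 0.0816) and passed by DESeq2 (adjusted p = 0.0122).

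The class II chains and their chaperone were the most abundant of the genes that rose. Cd74 read 329, 377, 287 and 327 CPM in exposed knockout libraries, against 164, 184, 199 and 132 CPM in exposed control libraries, a rise of 0.96 on the log2 scale (SE 0.24, edgeR adjusted p = 0.0271). H2-Ab1, the I-A beta chain, read 124, 130.3, 95.9 and 127 CPM in exposed knockout libraries, against 51.5, 64.2, 73.9 and 47.6 CPM in exposed control libraries, and rose by 1.01 (SE 0.25, adjusted p = 0.0241). H2-Aa, the I-A alpha chain, read 97.5, 104, 86.8 and 104 CPM in exposed knockout libraries, against 51.4, 48.6, 70.5 and 39.7 CPM in exposed control libraries, and rose by 0.90 (SE 0.23, adjusted p = 0.0322). For these 3 genes the lowest knockout library stood above the highest control library. H2-Eb1, the I-E beta chain, read 108, 107, 87.7 and 106 CPM in exposed knockout libraries, against 48.1, 55.5, 97.7 and 57.0 CPM in exposed control libraries. Control library 3 reached into the knockout range, which made H2-Eb1 the 1 gene of the 10 whose groups overlapped, and its log2 fold change of 0.66 (SE 0.26) did not pass (adjusted p = 0.158).

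The regulator Ciita read 7.91, 7.16, 10.5 and 6.61 CPM in exposed knockout libraries, against 3.80, 3.66, 6.51 and 5.73 CPM in exposed control libraries. Its groups did not overlap, by a margin of 6.61 to 6.51 CPM, and the log2 fold change of 0.71 (SE 0.28) did not pass (edgeR adjusted p = 0.155). Cd86 read 17.3, 14.98, 17.9 and 21.4 CPM in exposed knockout libraries, against 13.4, 8.78, 14.6 and 8.34 CPM in exposed control libraries, with a log2 fold change of 0.66 (SE 0.20, adjusted p = 0.0611, DESeq2 adjusted p = 0.0480). In all, 8 of the 10 genes had every exposed knockout library above every exposed control library and 1 had every one below, where 6.47% and 4.84% of all genes tested were separated in these directions.

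These calls were close to the threshold. Leaving out 1 exposed library at a time left 0 to 4 of the 10 genes called: 0 without knockout library 2 or control library 4, 1 without control library 1, 2 without knockout library 1, 3 without knockout library 3 or 4, and 4 without control library 2 or 3. The largest adjusted p of the 5 genes in these fits was 0.125, for Mfge8 without knockout library 2, and their log2 fold changes stayed between 0.67 and 1.14. H2-Aa passed only without control library 3.

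**Figure D2:**
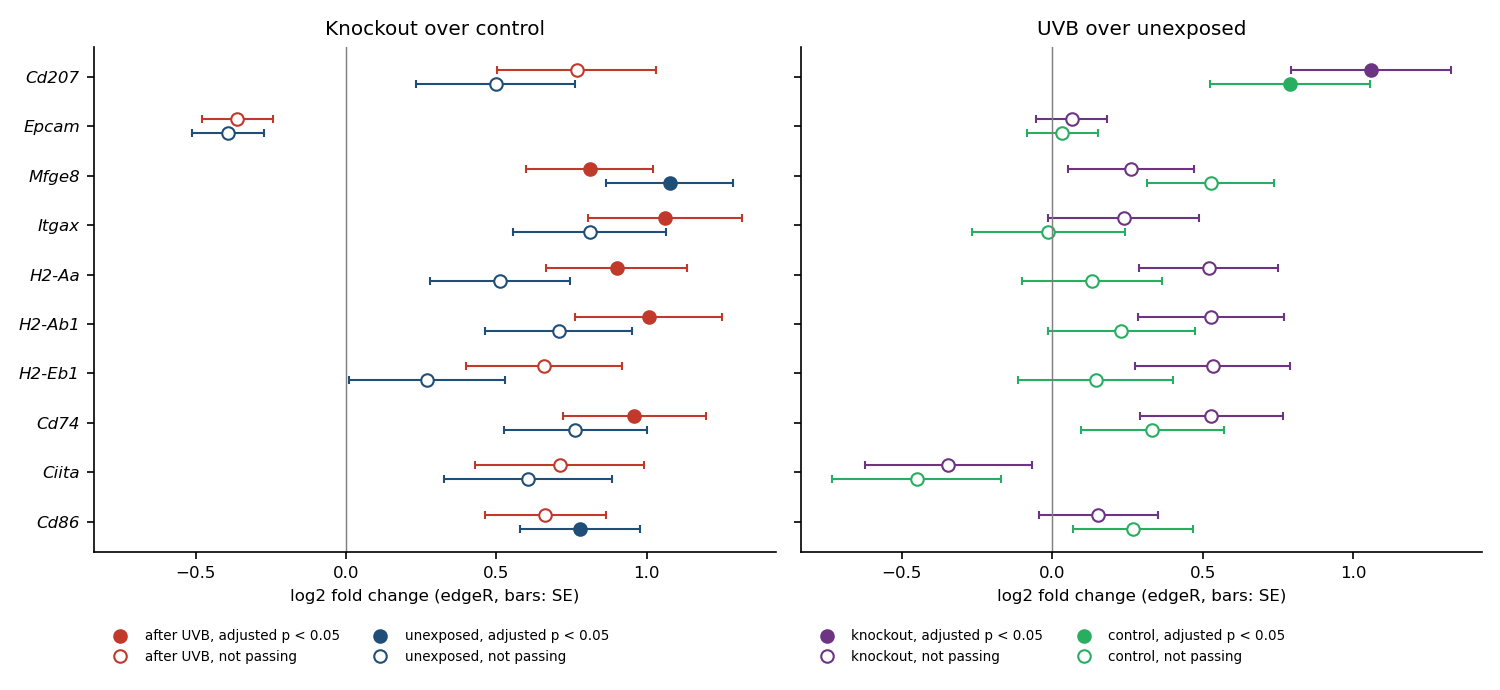
Log2 fold changes of the 10 genes from edgeR (points, bars give the SE), knockout over control on the left and UVB over unexposed on the right, with filled points for adjusted p under 0.05. Itgax, H2-Ab1, Cd74, H2-Aa and Mfge8 are filled after UVB on the left, Mfge8 and Cd86 unexposed, and Cd207 alone is filled on the right, in both genotypes.

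Without UVB, 2 of the 10 genes rose in knockout epidermis, Mfge8 and Cd86, and 0 fell, where 2.1% of all genes tested passed in either direction, 0.964% higher and 1.14% lower (171 and 202 genes, a split of 179 and 154 with DESeq2 size factors and of 180 and 136 with upper-quartile scaling). Mfge8 read 56.1, 71.7, 53.1 and 63.3 CPM in unexposed knockout libraries, against 41.3, 36.3, 17.5 and 20.7 CPM in unexposed control libraries. It rose by 1.08 on the log2 scale (SE 0.21, edgeR adjusted p = 0.00917) with no overlap, and the call was lost without control library 4 (adjusted p = 0.0511). Cd86 read 16.8, 12.8, 15.6 and 19.0 CPM in unexposed knockout libraries, against 8.75, 10.1, 10.5 and 8.10 CPM in unexposed control libraries, a rise of 0.78 (SE 0.20, adjusted p = 0.0463) with no overlap. The Cd86 call was lost with any 1 of the 8 libraries left out (adjusted p = 0.0569 to 0.170). The median log2 fold change was 0.66 over the 10 genes and 0.00 over all genes tested.

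The class II chains were wide in spread within unexposed groups. Cd74 read 251, 327, 172 and 164 CPM in unexposed knockout libraries, against 183, 167, 106 and 83.0 CPM in unexposed control libraries (log2 fold change 0.76, SE 0.24, edgeR adjusted p = 0.121, DESeq2 adjusted p = 0.0229). H2-Ab1 read 95.1, 113, 59.1 and 62.7 CPM in unexposed knockout libraries, against 68.9, 63.2, 39.4 and 30.7 CPM in unexposed control libraries (0.71, SE 0.24, adjusted p = 0.172). H2-Aa read 72.6, 94.0, 46.1 and 60.9 CPM in unexposed knockout libraries, against 71.1, 49.2, 41.3 and 30.3 CPM in unexposed control libraries (0.51, SE 0.23, adjusted p = 0.368). In each of these the groups overlapped, with knockout libraries 3 and 4 inside the control range. H2-Eb1 read 86.1, 98.9, 47.3 and 49.4 CPM in unexposed knockout libraries, against 78.6, 65.5, 48.0 and 41.6 CPM in unexposed control libraries (0.27, SE 0.26, adjusted p = 0.824).

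Cd207 read 25.7, 26.0, 15.6 and 11.2 CPM in unexposed knockout libraries, against 21.1, 14.9, 12.3 and 7.32 CPM in unexposed control libraries, and its log2 fold change of 0.50 (SE 0.27) did not pass (edgeR adjusted p = 0.486). Itgax read 7.42, 11.6, 6.27 and 8.59 CPM in unexposed knockout libraries, against 4.91, 5.93, 5.61 and 2.91 CPM in unexposed control libraries. It did not overlap but did not pass either (0.81, SE 0.25, adjusted p = 0.115, DESeq2 adjusted p = 0.0426). Ciita read 10.2, 13.1, 8.10 and 9.50 CPM in unexposed knockout libraries, against 10.04, 7.67, 4.37 and 4.80 CPM in unexposed control libraries (0.61, SE 0.28, adjusted p = 0.375). Epcam was again the gene on the lower side, at 286, 288, 315 and 256 CPM in unexposed knockout libraries, against 371, 327, 400.0 and 405 CPM in unexposed control libraries (-0.39, SE 0.12, adjusted p = 0.0962, DESeq2 adjusted p = 0.0408). Mfge8, Itgax and Cd86, 3 of the 10 genes, had every unexposed knockout library above every control library and Epcam had every one below, where 4.63% and 5.37% of all genes tested were separated in these directions.

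UVB raised Cd207 in both genotypes and passed for none of the other 9 genes, in a comparison in which a large part of the transcriptome moved. In knockout epidermis 1 of the 10 genes rose and 0 fell, where 32.2% of all genes tested passed, 18.1% higher and 14.1% lower (3207 and 2503 genes, a split of 2746 and 2894 with upper-quartile scaling). In control epidermis the counts were the same, where 35.8% passed, 17.7% higher and 18% lower. Cd207 rose by 1.06 on the log2 scale in knockouts (SE 0.27, edgeR adjusted p = 0.00406), with all 4 exposed above all 4 unexposed libraries, a separation that 19.7% of all genes tested had. This call held with each of the 8 libraries left out (adjusted p = 0.00284 to 0.0229).

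In controls Cd207 rose by 0.79 (SE 0.27, edgeR adjusted p = 0.0256), with an overlap of 1 exposed library at 20.5 CPM and 1 unexposed library at 21.1 CPM. This call was lost without exposed control library 1, 2 or 3 (adjusted p = 0.0833, 0.0640 and 0.0573) or unexposed control library 3 or 4 (adjusted p = 0.0834 and 0.0845). The class II genes did not pass in either genotype. Cd74 had log2 fold changes of 0.53 in knockouts (SE 0.24, adjusted p = 0.102) and 0.33 in controls (SE 0.24, adjusted p = 0.305). Those of H2-Aa, H2-Ab1 and H2-Eb1 were 0.52 to 0.53 in knockouts and 0.13 to 0.23 in controls. In knockouts these 4 genes were called when unexposed knockout library 2, the highest of its group for each of them, was left out, which took the count to 5 of 10.

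Ciita had the largest estimate on the lower side after UVB, with log2 fold changes of -0.35 in knockouts (SE 0.28, edgeR adjusted p = 0.397) and -0.45 in controls (SE 0.28, adjusted p = 0.233). Mfge8 came close to the threshold in controls (0.53, SE 0.21, adjusted p = 0.0580) and passed there by DESeq2 (adjusted p = 0.0444) and limma voom (adjusted p = 0.0298). Epcam, Itgax and Cd86 had log2 fold changes between -0.01 and 0.27 in both genotypes. The median over the 10 genes was 0.39 in knockouts, against 0.01 over all genes tested, and 0.19 in controls, against -0.02.

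Whether the genotypes differed in their response to UVB was tested directly as the difference of the log2 fold changes, knockout minus control. It passed for 0 of the 10 genes and for 0 of 17741 genes by edgeR, where 1043 genes had an unadjusted p under 0.05, while DESeq2 called 31 genes and limma voom 0. The largest differences among the 10 genes were 0.39 for H2-Eb1 (SE 0.37, edgeR adjusted p = 0.931) and 0.39 for H2-Aa (SE 0.33, adjusted p = 0.930), with 0.27 for Cd207 (SE 0.37, adjusted p = 0.964). That 5 genes passed between genotypes after UVB and 2 without it is therefore not shown to be a difference between the conditions. The genotype comparisons and the UVB comparisons share libraries, so their values for a gene are not independent of each other.

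Within groups the class II genes moved together from library to library. After each group mean was taken off, Pearson's r of log2(CPM + 0.5) over the 16 libraries was 0.858 to 0.978 among the 6 pairs of H2-Aa, H2-Ab1, H2-Eb1 and Cd74. It was 0.740 to 0.873 between Cd207 and these 4 genes and 0.570 to 0.699 between Ciita and them. Cd86 had r of -0.174 to 0.194 and Epcam -0.449 to 0.121 with the other 9 genes. The values are a description over libraries that share groups, depth and library composition, with no test. The spread within unexposed groups was therefore largely the same libraries being high or low for Cd207 and class II together: unexposed knockout library 2 was the highest of its group and unexposed control library 4 the lowest of its group for Cd207, Cd74, H2-Aa, H2-Ab1 and H2-Eb1.

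The summed level of H2-Aa, H2-Ab1 and H2-Eb1 was set against Cd207 in each library. The sum was 329, 341, 270.5 and 337 CPM in exposed knockout libraries, against 151, 168, 242 and 144 CPM in exposed control libraries. Unexposed, it was 254, 306, 152 and 173 CPM in knockout libraries, against 219, 178, 129 and 103 CPM in control libraries. Divided by Cd207, it was 7.81, 8.51, 7.44 and 7.44 in exposed knockout libraries and 5.41, 7.20, 9.97 and 7.03 in exposed control libraries, so the genotypes overlapped after UVB. The ratio was 9.89, 11.8, 9.80 and 15.5 in unexposed knockout libraries and 10.4, 11.9, 10.5 and 14.03 in unexposed control libraries, which overlapped as well. Exposed libraries were below all unexposed ones of their genotype. Means were 7.80 ± 0.504 in exposed knockouts and 11.7 ± 2.65 in unexposed knockouts, and 7.40 ± 1.89 in exposed controls and 11.7 ± 1.71 in unexposed controls (SD, n = 4 each). The ratio between genes is a description with no test, and it was formed after the values of its parts were known.

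**Figure D3:**
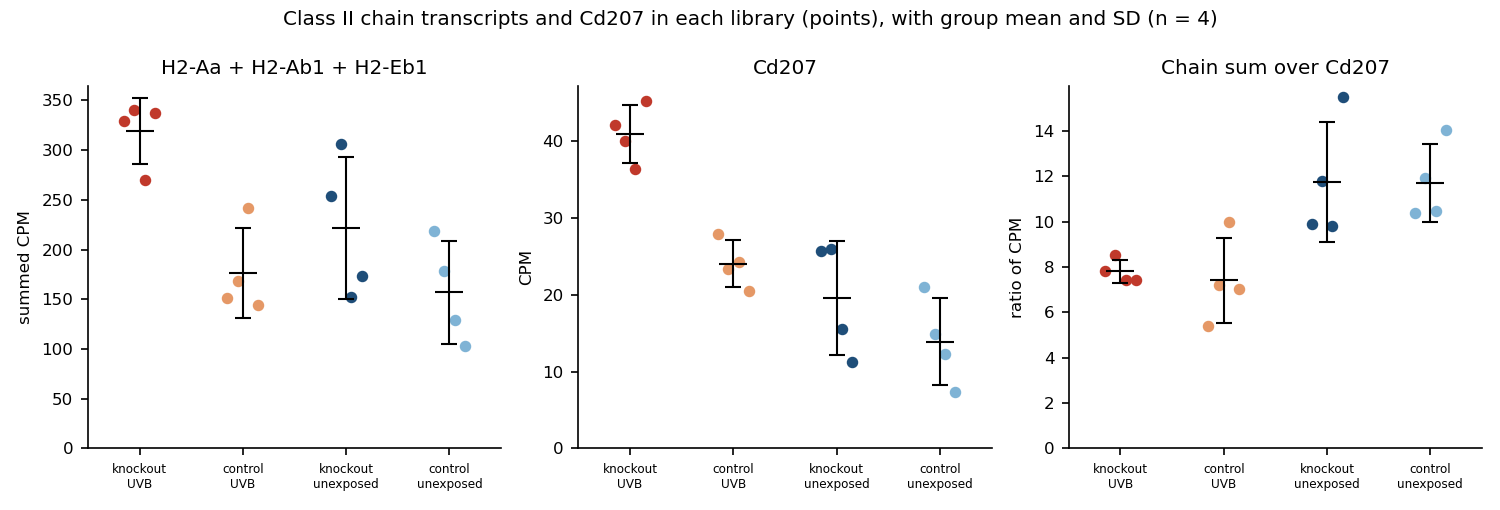
Summed level of H2-Aa, H2-Ab1 and H2-Eb1 (left, CPM), level of Cd207 (middle, CPM) and their ratio (right, no unit) in every library (points), with group mean and SD (n = 4), all axes from 0. The group means of the sum and of Cd207 are highest in exposed knockouts, whereas the ratio is 5.41 to 9.97 in exposed and 9.80 to 15.5 in unexposed libraries.

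Ratios of Ciita, Cd86 and Cd74 were read in the same way. Ciita transcripts were 2.59 ± 0.886% of the chain sum in exposed knockouts and 2.84 ± 0.786% in exposed controls, against 4.78 ± 0.731% in unexposed knockouts and 4.24 ± 0.590% in unexposed controls (SD, n = 4 each). The ranges of exposed and unexposed libraries did not overlap in knockouts (1.96 to 3.89% and 4.04 to 5.49%), and overlapped in controls (2.17 to 3.97% and 3.39 to 4.68%). Cd86 over Cd207 was 0.374 to 0.493 in exposed knockout libraries, against 0.494 to 1.70 in unexposed knockout libraries. It was 0.376 to 0.600 in exposed control libraries, against 0.416 to 1.11 in unexposed control libraries. Cd74 over the chain sum was 0.971 to 1.11 in exposed knockout, 0.823 to 1.09 in exposed control, 0.949 to 1.13 in unexposed knockout and 0.809 to 0.939 in unexposed control libraries. The genotypes overlapped in this ratio after UVB. Unexposed they did not, with means of 1.03 ± 0.0811 in knockouts and 0.852 ± 0.0586 in controls (SD, n = 4 each).

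The genes whose within-group pattern was most like that of Cd207, among 13183 genes averaging 1 CPM or more, were Msn (r = 0.900), Vegfa (0.897), Cebpd (0.853), Tgfb1 (0.841), P2ry2 (0.832), Ost4 (0.828), Il4ra (0.818) and Casp6 (0.816). Those most like H2-Aa were Sept3 (0.888), Swap70 (0.846), H2-DMa (0.844), Hcls1 (0.830), Gnai2 (0.828), Trp53i13 (0.799), Kif26a (0.796) and Tcaf2 (0.775). Both lists are over 16 libraries, and the highest of many values of r are high by selection. H2-DMa belongs to the class II pathway and Hcls1 is a leukocyte gene, while Tgfb1 encodes the cytokine on which Langerhans cells depend. Of the genes named, H2-DMa and Tgfb1 alone are on any of the gene lists followed here. Msn and Vegfa, which rank highest with Cd207, and Sept3, which ranks highest with H2-Aa, are on none. The likeness is therefore not particular to genes of Langerhans cells or class II.

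H2-Ea-ps, the gene of the I-E alpha chain, set some libraries apart. Several mouse haplotypes, that of the C57BL/6 reference among them, carry a deletion that silences H2-Ea, and the annotation lists the gene (chromosome 17, 34341959 to 34344645, GRCm38) as a polymorphic pseudogene. It read 0, 26.4, 20.2 and 26.3 CPM in exposed knockout libraries, against 0, 15.6, 0 and 0 CPM in exposed control libraries. It read 19.3, 21.0, 8.60 and 11.3 CPM in unexposed knockout libraries, against 0 in all 4 unexposed control libraries. Where present it had 363 to 1403 counts, so 8 libraries held it plainly and 8 held none. The mean of the unexposed knockout libraries was at least 213-fold higher than that of the control libraries, with each control library set at a floor of 3 counts, but the gene did not pass (edgeR adjusted p = 0.193 unexposed and 0.588 after UVB). Unexposed, presence of this transcript and genotype at Cebpb cannot be told apart. After UVB, 1 library of each genotype differed from the rest of its group in this transcript. Knockout library 1, with 0, read 97.5 CPM for H2-Aa and 108 CPM for H2-Eb1, and the other knockout libraries read 86.8 to 104 and 87.7 to 107 CPM. Control library 2, with 15.6 CPM of H2-Ea-ps, read 48.6 CPM for H2-Aa and 55.5 CPM for H2-Eb1, inside the range of the other control libraries. Without these 2 libraries, a setting chosen after seeing the data, 1 of the 10 genes passed after UVB in place of 5, Itgax, while the log2 fold changes of the other 4 were 0.87 to 1.03 (adjusted p = 0.0510 to 0.100). The part of the H2-Ea-ps difference in the class II values, and how class II alleles other than the reference's affect alignment and counting here, was not tested.

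**Figure D4:**
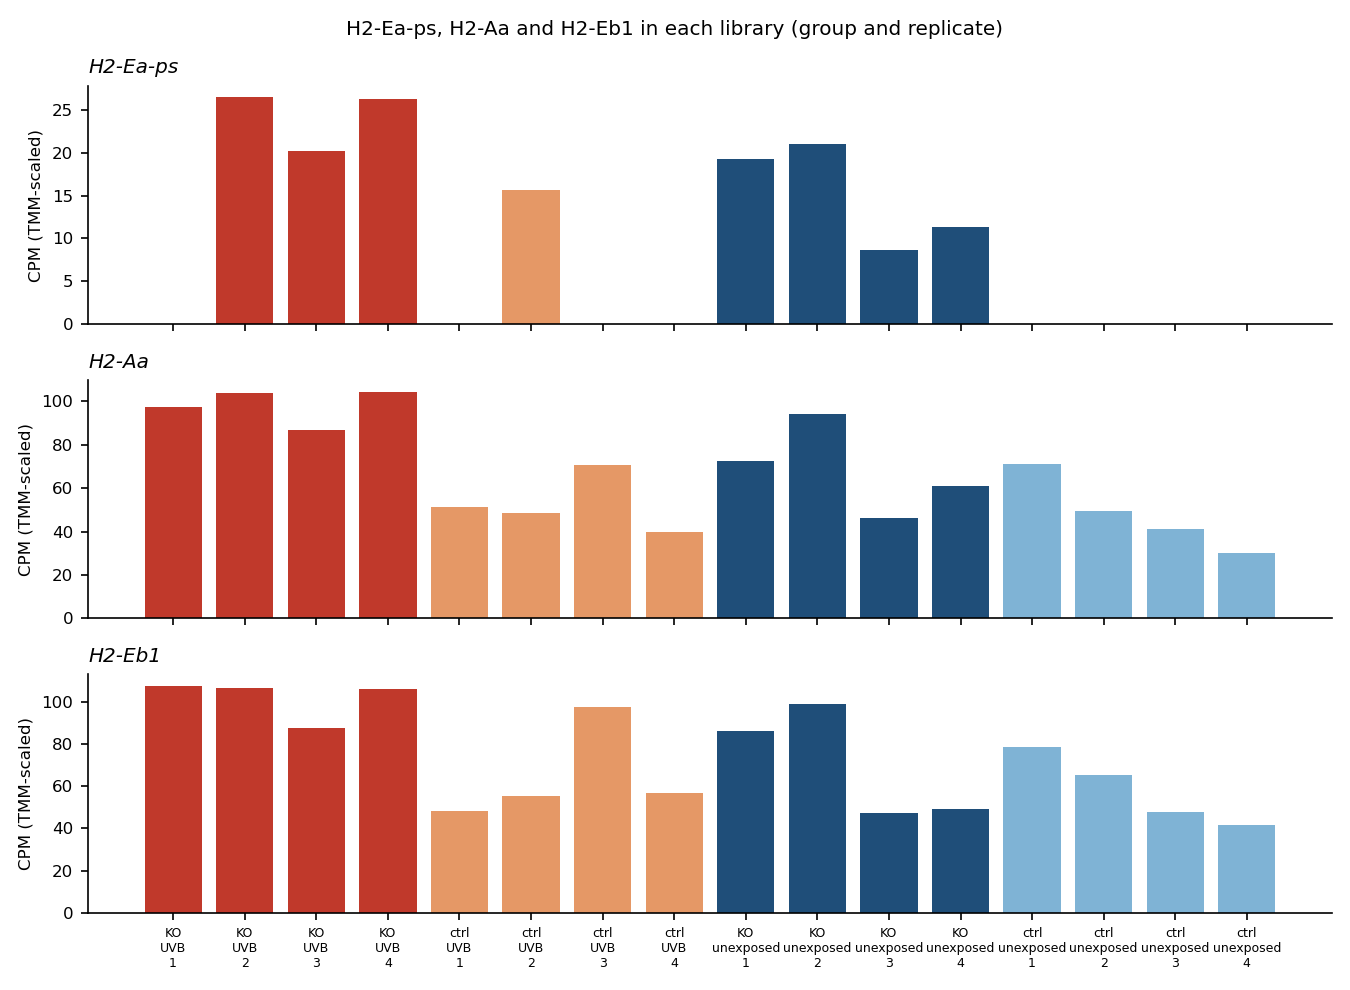
Level of H2-Ea-ps (top), H2-Aa (middle) and H2-Eb1 (bottom) in each of the 16 libraries (bars, CPM from 0), in the order exposed knockout, exposed control, unexposed knockout, unexposed control. H2-Ea-ps is present in 3 exposed knockout, 1 exposed control and 4 unexposed knockout libraries and at 0 in the other 8, whereas H2-Aa and H2-Eb1 are present in all.

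Beside the counts of calls in the lists below, 4.68% of all genes tested passed between genotypes after UVB and 2.1% unexposed. For UVB, 32.2% passed in knockouts and 35.8% in controls. The rest of the class II pathway was followed in a list of 11 genes, 10 of them tested. After UVB 1 rose in knockouts and 0 fell: H2-DMb2, a beta chain of the peptide exchanger, at 4.95, 6.86, 6.13 and 6.61 CPM in exposed knockout libraries, against 2.27, 3.57, 3.17 and 1.91 CPM in exposed control libraries. Its log2 fold change was 1.17 (SE 0.29, edgeR adjusted p = 0.0245), and the call was lost without knockout library 2 or 3 or control library 1 or 4 (adjusted p = 0.0543 to 0.0787). H2-DMb1 and H2-DMb2 are close paralogs, so their counts may be shared in part. The list's median log2 fold change was 0.70, against 0.04 over all genes tested, and Ifi30, the thiol reductase of the endosome and the most abundant gene of the list, had -0.12 (SE 0.12, adjusted p = 0.641). H2-DMa had 0.47 (SE 0.27, adjusted p = 0.357).

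Unexposed, 0 of these 10 passed between genotypes, with a median of 0.40 that was the same with H2-Ea-ps set at its bound. UVB lowered March1, a ubiquitin ligase that takes class II molecules off the surface, in knockouts (log2 fold change -1.001, SE 0.35, edgeR adjusted p = 0.0314) and in controls (-0.96, SE 0.35, adjusted p = 0.0392). These calls were lost with some single libraries left out (4 of 8 in knockouts and 5 of 8 in controls, adjusted p up to 0.147). H2-DMb1 fell by 0.74 in controls (-0.74, SE 0.25, adjusted p = 0.0261), a call lost without exposed control library 4 or unexposed control library 2 (adjusted p = 0.0769 and 0.0917). The difference of the responses passed for 0 of the 10.

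The factors that bind the X and Y boxes (Rfx5, Rfxap, Rfxank, Creb1, Nfya, Nfyb and Nfyc) were present in all groups, and 0 of 7 passed between genotypes in either condition, with medians of 0.17 after UVB and 0.05 unexposed. Creb1 had log2 fold changes of -0.06 after UVB (SE 0.14, edgeR adjusted p = 0.871) and 0.05 unexposed (SE 0.14, adjusted p = 0.977), and Nfyc had -0.05 (SE 0.13, adjusted p = 0.876) and -0.11 (SE 0.13, adjusted p = 0.891). UVB raised Nfya, a subunit of the Y box factor, in knockouts (1.00, SE 0.20, adjusted p = 0.000505) and in controls (0.78, SE 0.20, adjusted p = 0.00397).

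Interferon gamma acts on Ciita through its receptor and the JAK kinases. Ifng itself was under 1 CPM in every library. Ifngr1, Ifngr2, Jak1, Jak2, Irf1, Irf2 and Usf1, 7 genes that code for the receptor, its kinases and transcription factors that act on Ciita or on this route, were tested, and 0 of the 7 passed between genotypes by edgeR, after UVB or unexposed. After UVB, Jak1 and Usf1 had log2 fold changes of 0.20 (SE 0.11, edgeR adjusted p = 0.330) and 0.07 (SE 0.14, adjusted p = 0.845).

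UVB lowered Jak1 in knockouts (-0.60, SE 0.11, edgeR adjusted p = 0.000276) as the 1 gene of the 7 that passed. In controls 1 rose and 3 fell, where 35.8% of all genes tested passed. Jak1 (-0.81, SE 0.11, adjusted p = 1.05e-05), Ifngr2 (-0.49, SE 0.11, adjusted p = 0.00188) and Irf2 (-0.43, SE 0.16, adjusted p = 0.0371) fell, and Ifngr1 rose (0.53, SE 0.17, adjusted p = 0.0171). The Irf2 call was lost with 5 of the 8 libraries left out in turn (adjusted p up to 0.120) and the Ifngr1 call with 2 (adjusted p up to 0.109). The difference of the responses passed for 0 of the 7.

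Of 10 further markers of Langerhans cells and leukocytes, 9 were tested and Itgam was listed at 0 in every library. Itgam shares 68.67% of its exon bases with Gm49368 on the same strand, so this 0 does not show that it was unexpressed. Csf1r, the receptor for IL-34 and CSF1, rose in knockouts in both conditions. It read 26.9, 29.4, 23.8 and 20.8 CPM in exposed knockout libraries, against 9.61, 17.4, 11.6 and 13.8 CPM in exposed control libraries (log2 fold change 0.94, SE 0.22, edgeR adjusted p = 0.0148). It read 25.8, 27.4, 17.5 and 22.9 CPM in unexposed knockout libraries, against 12.4, 16.9, 10.04 and 8.68 CPM in unexposed control libraries (0.96, SE 0.22, adjusted p = 0.0226). No knockout library overlapped a control library in either condition. The call was lost with 3 of the 8 exposed libraries left out in turn (adjusted p up to 0.0575) and with 5 of the 8 unexposed libraries (adjusted p up to 0.111).

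Ly75, the uptake receptor DEC-205, read 16.6, 13.8, 8.16 and 14.1 CPM in unexposed knockout libraries, against 6.97, 7.77, 5.03 and 4.79 CPM in unexposed control libraries. It rose by 1.10 on the log2 scale (SE 0.24, edgeR adjusted p = 0.0172), and the call was lost with 4 of the 8 libraries left out in turn (adjusted p up to 0.0926). Of the 9 markers, 1 rose after UVB (Csf1r) and 2 unexposed (Csf1r and Ly75), and 0 fell, with medians of 0.41 and 0.14. Cd24a, which keratinocytes also make, had -0.76 after UVB (SE 0.22, adjusted p = 0.0519) and -0.32 unexposed (SE 0.22, adjusted p = 0.652). UVB raised Cd24a in both genotypes (1.80 in knockouts, SE 0.23, adjusted p = 6.30e-06, and 2.24 in controls, SE 0.23, adjusted p = 4.27e-07). It lowered the inhibitory receptor Sirpa in both (-0.91, SE 0.16, adjusted p = 0.000149, and -0.97, SE 0.16, adjusted p = 6.51e-05), Ly75 in knockouts (-0.78, SE 0.23, adjusted p = 0.0139), and Ptprc, the pan-leukocyte marker CD45, in controls (-1.20, SE 0.31, adjusted p = 0.00416) together with Cd52 (-0.54, SE 0.16, adjusted p = 0.0105). Ly75 had -0.50 in controls (SE 0.24, adjusted p = 0.113), and Ptprc and Cd52 had -0.22 (SE 0.30, adjusted p = 0.645) and -0.19 (SE 0.16, adjusted p = 0.410) in knockouts. The Ly75 call was lost without unexposed knockout library 1 (adjusted p = 0.0636).

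Of 17 genes of Langerhans cell lineage and survival, 16 were tested and Irf8 was listed at 0 in every library. After UVB 2 rose in knockouts, Bmp7 and Tgfb1, both ligands that support Langerhans cell differentiation, and 0 fell (median 0.38). Bmp7 read 47.9, 39.5, 31.9 and 32.1 CPM in exposed knockout libraries, against 15.9, 20.2, 18.4 and 23.5 CPM in exposed control libraries (log2 fold change 0.96, SE 0.17, edgeR adjusted p = 0.00323), and its call held with each of the 8 libraries left out. Tgfb1 read 9.42, 10.02, 8.85 and 9.79 CPM in exposed knockout libraries, against 5.93, 6.22, 5.93 and 4.07 CPM in exposed control libraries (0.78, SE 0.21, adjusted p = 0.0378). The groups of both genes did not overlap. The Tgfb1 call was kept with 1 of the 8 libraries left out in turn and lost with the other 7 (adjusted p up to 0.110). Il34, the keratinocyte ligand of Csf1r, had -0.11 (SE 0.18, adjusted p = 0.814), and Klf4, which keratinocytes make in quantity, had -0.32 (SE 0.17, adjusted p = 0.305).

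Unexposed, 0 of the 16 lineage genes passed between genotypes (median 0.21). UVB lowered the TGF-beta receptor gene Tgfbr1 in knockouts (-0.86, SE 0.20, edgeR adjusted p = 0.00192) and in controls (-0.97, SE 0.20, adjusted p = 0.000681), and Runx3 in knockouts (-0.80, SE 0.23, adjusted p = 0.00985) and in controls (-0.63, SE 0.23, adjusted p = 0.0381). It raised Tgfbr2 in knockouts (0.35, SE 0.12, adjusted p = 0.0237) and in controls (0.78, SE 0.12, adjusted p = 2.26e-05). The Runx3 call in controls was lost with 5 of the 8 libraries left out in turn (adjusted p up to 0.111), and the Tgfbr2 call in knockouts with 4 (adjusted p up to 0.122). Il34 fell in knockouts (-0.58, SE 0.18, adjusted p = 0.0196) and had -0.33 in controls (SE 0.18, adjusted p = 0.175). Axl, a receptor for dying cells, rose in knockouts (0.49, SE 0.13, adjusted p = 0.00755) and had 0.33 in controls (SE 0.13, adjusted p = 0.0639). In knockouts the Runx3 and Il34 calls were lost without unexposed library 4 (adjusted p = 0.0538 and 0.0693) and the Axl call without exposed library 4 (adjusted p = 0.0668). Klf4 rose in controls (0.86, SE 0.17, adjusted p = 0.000486) and had 0.35 in knockouts (SE 0.17, adjusted p = 0.127), and Id2, a factor of the lineage, fell in controls (-0.98, SE 0.19, adjusted p = 0.000459) and had -0.28 in knockouts (SE 0.19, adjusted p = 0.298). In all 2 rose and 3 fell in knockouts, where 32.2% of all genes tested passed, and 2 rose and 5 fell in controls, where 35.8% passed. These counts are near those shares and are not read as a result about the lineage genes. The difference of the responses passed for 0 of the 16.

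Of 13 genes of costimulation and maturation besides Cd86, 12 were tested. After UVB 1 rose in knockouts, Fscn1, the actin-bundling fascin of mature dendritic cells, at 12.7 ± 2.12 CPM in exposed knockouts and 5.68 ± 1.88 CPM in exposed controls (SD, n = 4 each, log2 fold change 1.16, SE 0.32, edgeR adjusted p = 0.0399). Its call was kept with 2 of the 8 libraries left out in turn (adjusted p up to 0.117 in the others). The list's median was 0.69, and the same with Ccl17, at 0 in exposed controls, set at its bound. Relb had 0.00 (SE 0.19, adjusted p = 0.999) and Ccl22 0.49 (SE 0.24, adjusted p = 0.263). Unexposed, 0 of the 12 passed (median 0.73). UVB raised Icosl, a costimulatory ligand, in knockouts (1.16, SE 0.30, adjusted p = 0.00502) and in controls (1.00, SE 0.31, adjusted p = 0.0140), and Cd40 in controls (1.38, SE 0.48, adjusted p = 0.0305). In controls the Cd40 call was lost with 5 of the 8 libraries left out in turn (adjusted p up to 0.111), and the Icosl call without exposed library 2 or unexposed library 3 (adjusted p = 0.112 and 0.0548). Ccl17 and Pdcd1lg2 passed as lower in controls but were under 1 CPM in every library, so no fold is given.

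Of 11 signals that recruit or mobilise Langerhans cells, 1 fell in knockouts after UVB and 0 rose (median -0.02), and 0 passed unexposed (median 0.06). Il18 read 186.5 ± 54.6 CPM in exposed knockouts and 336 ± 65.4 CPM in exposed controls (SD, n = 4 each, log2 fold change -0.85, SE 0.19, edgeR adjusted p = 0.0125). Cdh1, the E-cadherin that holds Langerhans cells among keratinocytes, had -0.02 (SE 0.11, adjusted p = 0.953). UVB raised 4 of the 11 in knockouts and 5 in controls, where 18.1% and 17.7% of all genes tested were called higher. The CCR6 ligand Ccl20 rose by 2.72 in knockouts (SE 0.26, adjusted p = 2.27e-07) and by 2.24 in controls (SE 0.25, adjusted p = 9.19e-07). Il1b rose by 2.88 in knockouts (SE 0.45, adjusted p = 6.42e-05) and by 3.68 in controls (SE 0.47, adjusted p = 6.44e-06), Tslp by 2.42 (SE 0.40, adjusted p = 8.13e-05) and 2.19 (SE 0.39, adjusted p = 0.000174), and Tnf by 1.83 (SE 0.43, adjusted p = 0.00225) and 1.64 (SE 0.43, adjusted p = 0.00478). Il18 fell by 0.63 in knockouts (-0.63, SE 0.19, adjusted p = 0.0140) and had -0.37 in controls (SE 0.19, adjusted p = 0.139). Both Il18 calls were lost without exposed knockout library 2 (adjusted p = 0.0553 between genotypes and 0.0615 for UVB).

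**Figure D5:**
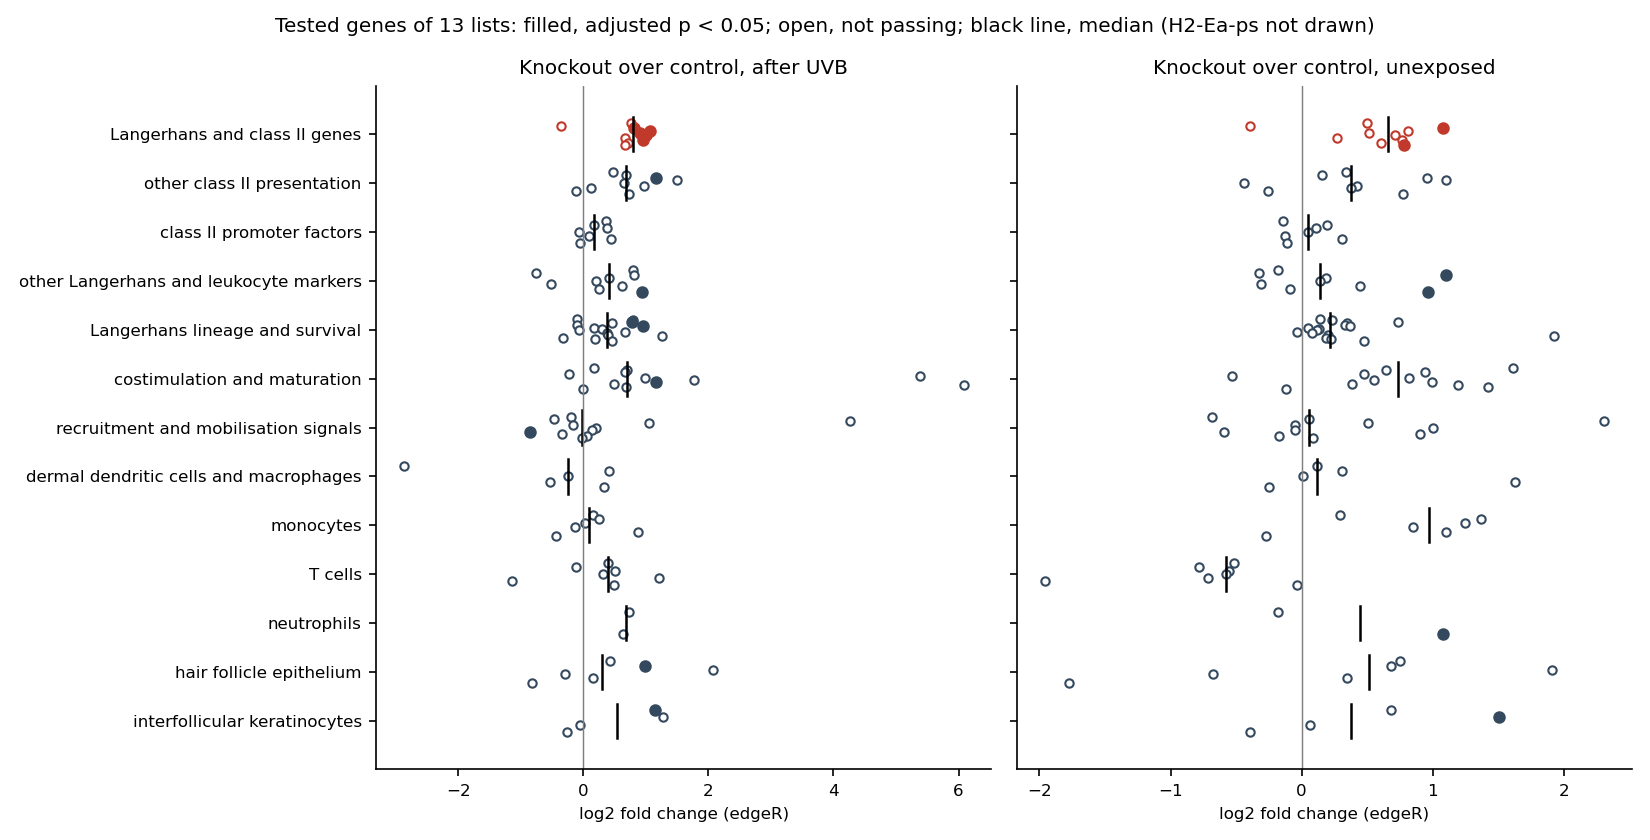
Log2 fold changes, knockout over control, of the tested genes of 13 lists (circles, filled for adjusted p under 0.05) with the list's median (black line), after UVB on the left and unexposed on the right, with H2-Ea-ps left out. The Langerhans and class II genes lie at a median of 0.79 after UVB and 0.66 unexposed with Epcam as the 1 gene below 0, and most other lists hold 0 to 2 filled circles.

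Class II genes are also made by other leukocytes, and markers of these were read in the same libraries. Of 10 markers of dermal dendritic cells and macrophages, 6 were under 1 CPM in every library (Cd209a, Xcr1, Clec9a, Clec10a, Mrc1 and Cd163), and the sum of all 10 was 8.90 to 17.0 CPM in exposed knockout, 9.59 to 12.4 CPM in exposed control, 13.9 to 20.9 CPM in unexposed knockout and 16.4 to 20.1 CPM in unexposed control libraries. None of the 5 tested passed between genotypes. Of the B cell markers, Ms4a1, Cd79b, Pax5 and Cd22 were under 1 CPM throughout, whereas Cd79a averaged 6.44 ± 2.13 CPM in exposed knockouts and 10.2 ± 4.25 CPM in exposed controls, against 0.304 ± 0.464 CPM in unexposed knockouts and 0.0691 ± 0.0670 CPM in unexposed controls (SD, n = 4 each).

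The sum of 6 monocyte markers was 22.01 to 37.4 CPM in exposed knockout, 28.9 to 46.4 CPM in exposed control, 6.09 to 10.6 CPM in unexposed knockout and 6.05 to 9.54 CPM in unexposed control libraries, with Ly6c2 and Fcgr1 under 1 CPM throughout. None of the 6 passed between genotypes, and Cd68 rose with UVB in knockouts (2.37, SE 0.21, edgeR adjusted p = 1.10e-07) and in controls (2.53, SE 0.21, adjusted p = 2.66e-08). The monocyte sum was higher in every exposed than in every unexposed library, and its part in the Cd207 values was not tested. Over all libraries Cd68 held most of the counts behind that sum, 10451 against 1475 for Lyz2, the next of the 6. Cd68 was the 1 gene of the 6 that passed for UVB in knockouts, and Cd68 and Cd14 passed in controls. The sum of 7 T cell markers, which include the dendritic epidermal T cells, was 54.9 to 96.7 CPM in exposed knockout, 56.8 to 65.5 CPM in exposed control, 46.5 to 76.6 CPM in unexposed knockout and 71.0 to 92.2 CPM in unexposed control libraries, and 0 of 7 passed between genotypes. Of 5 neutrophil markers, Ly6g, Retnlg and Mmp8 were under 1 CPM throughout. The receptor gene Cxcr2 rose in unexposed knockouts (1.08, SE 0.24, adjusted p = 0.0215), a call lost with 4 of the 8 libraries left out in turn (adjusted p up to 0.0951). Csf3r, the other neutrophil marker tested, had -0.18 there and did not pass, and 0 passed between genotypes after UVB. Cxcr2 held 17538 counts over all libraries, against 287 for Csf3r. It also rose with UVB in controls (0.94, edgeR adjusted p = 0.00399).

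Keratinocyte genes moved between genotypes as well, beside the Langerhans genes. Krt5 rose in exposed knockouts, at 774 ± 31.3 CPM in exposed knockouts and 351 ± 105 CPM in exposed controls (SD, n = 4 each, log2 fold change 1.14, SE 0.23, edgeR adjusted p = 0.00641). The hair canal keratin Krt79 rose there too (0.99, SE 0.21, adjusted p = 0.00987), and Krt14 rose in unexposed knockouts (1.502, SE 0.37, adjusted p = 0.0466), a call kept with 1 of the 8 libraries left out in turn. Krt10 and Krt1, of the suprabasal layers, had -0.27 (SE 0.27, adjusted p = 0.641) and -0.05 (SE 0.31, adjusted p = 0.960) after UVB. Of 6 hair follicle genes 1 rose after UVB and 0 unexposed, and of 4 interfollicular keratinocyte genes 1 rose in each condition. Whether the balance of layers or follicles in the sheets bears on the Langerhans and class II values was not tested.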

How the data were processed

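Whole-number raw counts for each Ensembl gene were deposited by the authors, who per the submitters' processing notes used FastQC, STAR, HTSeq and DESeq2. Their versions, the genome build used and whether counting was stranded were not given in the sources used here. Per the labels, the kit was NEBNext Ultra Directional. Columns were joined to samples by library number, with 0 left unmapped. GENCODE M21 (GRCm38) supplied symbols and exons, and 259 genes had no symbol. Of counts between 2 and 101, 68.8% were even (50% of those integers are), for no stated reason. The closest replicates had a chi-square per gene of 41.8 (20 or more counts), above counting error. Unexposed knockout library 4 lay furthest from its replicates, at 450 to 545, whereas the others of its group lay 41.8 to 78.5 from each other. That library also had the highest mitochondrial share, 10.2%, and its part in the results was not tested beyond leaving it out.

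The model was edgeR 4.0.16 (R 4.3.3) with a robust quasi-likelihood fit, 1 mean per group over all 16 libraries, TMM factors and the 17741 genes that filterByExpr retained (common biological coefficient of variation 0.445). Tests were two-sided, adjusted by Benjamini-Hochberg over these genes at a threshold of 0.05. The SE is the log2 fold change divided by the square root of F. The script was tested on simulated data. Comparisons were knockout against control after UVB and unexposed, the UVB response of each genotype, and the difference of those responses. Alternatives were DESeq2 size factors, upper-quartile scaling, no filter, a filter of 1 CPM in 4 libraries, DESeq2 1.42.0, limma 3.58.1 voom, the compared groups alone, and each library left out. Python 3.11.15 with pandas 2.3.3 and numpy 2.4.6 made the summaries, and matplotlib 3.10.9 the plots.

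The 10 genes and the other lists were chosen with earlier results of these data known. From each other list and comparison, the genes named were up to 4 that passed, by smallest p, and up to 2 that did not, by highest mean CPM, with a repeat or a low gene sometimes left out. Cd74 shares 0.715% of its exon bases with Mir5107 and Ciita 3.45% with Dexi on the opposite strand, so reads there are uncertain. Some genes of the other lists are not reported here.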

Additional observations from a re-analysis of the deposited data

Results flagged for a closer look

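In exposed knockout epidermis the H2-Eb1 level of library 3, 87.7 CPM, lay apart from the other 3 libraries, which read 106 to 108 CPM: the gap to the nearest library was 0.914 of the group's range, above Dixon's critical value for 4 samples. Over the 40 combinations of gene and group tested this was the 1 that met the criterion, and chance flags about 1 in 20. The same library was the lowest of its group for Cd207, H2-Aa, H2-Ab1 and Cd74.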

How the results depend on the processing

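The 10 genes gave 50 values over the 5 comparisons. Under settings that keep all libraries, 317 of 340 values kept their direction and their side of the threshold. Without the 2 exposed libraries set apart by H2-Ea-ps 32 of 40 did, and with 1 library left out 413 of 480. No value that passed changed direction. Of the 10 genes, those called after UVB (5) numbered 3 with no filter on low counts and 1 without the 2 H2-Ea-ps libraries. Those called unexposed (2) numbered 1 with no filter and 5 by DESeq2. Those called for UVB in controls (1) numbered 0 with no filter or without the 2 H2-Ea-ps libraries, and 2 with the stricter filter, DESeq2 or limma voom. Leaving out 1 library gave 0 to 4, 0 to 1, 1 to 5, 0 to 2 and 0 to 0 of the 10 genes in the 5 comparisons, knockout against control after UVB and unexposed, UVB in knockouts and in controls, and the difference. Over all genes, DESeq2 called 1516 after UVB (830 by edgeR), 742 unexposed (373) and 31 for the difference (0), where no filter gave 2 and the fit without the 2 H2-Ea-ps libraries 1. Leaving out 1 library gave 419 to 1356, 134 to 435, 4625 to 5474, 5520 to 6501 and 0 to 2 genes called. The causes were not tested.

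Values that changed direction were all near 0 and passed in neither setting. Epcam was -0.0262 with upper-quartile scaling and -0.0108 without the H2-Ea-ps libraries for UVB in knockouts, and -0.00285 with upper-quartile scaling and -0.0358 with no filter for UVB in controls. Its difference of responses was -0.03187 with DESeq2 size factors, -0.0234 with upper-quartile scaling, -0.00180 with the stricter filter, -0.03192 by DESeq2 and -0.0557 without the H2-Ea-ps libraries. Itgax for UVB in controls was 0.0163 with the stricter filter and 0.10 by limma voom, and the Ciita difference was -0.00260 without the H2-Ea-ps libraries. With 1 library left out, the ranges that crossed 0 were -0.000897 to 0.23 (Cd86) and -0.0316 to 0.14 (Epcam) for UVB in knockouts, -0.20 to 0.10 (Itgax), -0.0452 to 0.38 (H2-Aa), -0.0317 to 0.0684 (Epcam) and -0.13 to 0.32 (H2-Eb1) for UVB in controls, and -0.15 to 0.25 (Ciita) and -0.0598 to 0.11 (Epcam) for the difference.

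Scaling moved the split of calls over all genes: unexposed, 171 were higher and 202 lower with TMM, 179 and 154 with DESeq2 size factors, and 180 and 136 with upper-quartile scaling, and for UVB in knockouts, 3207 and 2503 with TMM, 2920 and 2763 with DESeq2 size factors, and 2746 and 2894 with upper-quartile scaling, while the median of all genes moved by less than 0.1 in each comparison. No paired analysis was possible because the labels number the libraries 1 to 16 and give the groups no shared replicate numbers. With 4 libraries a group, genes of a few CPM such as Ciita and Itgax have wide errors, and a value that did not pass does not show that the groups were alike.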
